A study of Mus musculus with 13 samples.

Results

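The collagen genes of the developing mouse heart are described here. Members are the genes of the feature list whose symbols read Col, a number, a, and a number, which gave 44 genes of 27 collagen types among 27998 genes. Single cells from wild-type C57Bl/6J mice were profiled in droplets, and each captured transcript carried a unique molecular identifier (UMI), which lets PCR copies of it count as 1. There were 2 libraries of E10.5 embryos and 2 each of hearts at E12.5, E14.5 and E16.5, and these were taken as replicates. The labels do not say that replicate libraries hold separate animals, so that p-values measure the spread between these libraries, which may be technical. E8.5 embryos had 1 matrix analysed here, and the 2 labelled samples of P3 hearts share 1 matrix, so that both stages are given as values and enter no test. Barcodes of the P3 matrix end in 1 or 2, called wells 1 and 2 here, and no source used here ties these endings to the 2 samples. P3 values pool both wells unless a well is named, and the paper, from visual examination, found significant batch differences at P3 only. The embryos at E8.5 and E10.5 were digested after removal of head and limbs, and cells of these stages therefore need not be cardiac. No genotype, allele or treatment differed between groups. Barcodes with at least 2000 UMIs were kept, which left 80741 barcodes and 4928 to 14675 a matrix, with 67141166 to 259041468 UMIs a matrix before this floor. Pairs of libraries, with the 2 P3 wells taken apart, shared 26 to 264 barcode sequences. Random draws would give 31.0 for the pair with 26 and 284 for the pair with 264.

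Barcodes were assigned to classes by named genes, none of which is a collagen. Cardiomyocytes held at least 1500 CPM (the gene's UMIs scaled to a common total for each sum) of Tnnt2, a sarcomere gene. Endothelium was gated on Pecam1, Cdh5, Tie1 and Egfl7, and divided by Npr3, a gene of endocardium, and Fabp4, a gene of coronary vessel endothelium. Mesenchyme was gated on Pdgfra, Postn, Twist1, Prrx1 and Meox1, and divided by Sox9, a transcription factor of valve cushion mesenchyme and cartilage, and Tcf21, a transcription factor of epicardium-derived fibroblasts. Epicardium held Upk3b, and mural cells, the pericytes and smooth muscle of vessels, held at least 500 CPM of Rgs5. Over all matrices 27346 barcodes were cardiomyocytes, 6273 were mesenchyme with Sox9 alone, 639 with Tcf21 alone and 2112 with both. The endothelium with Npr3 alone had 2735 barcodes and that with Fabp4 alone 1008, epicardium had 1193 and mural cells 961. Alone means at least 1 UMI of the gene and none of the other, and a gene without a UMI may still be expressed. Median UMIs ranged from 10368 to 17969 with Tcf21 alone and from 11148 to 24345 with both mesenchyme genes. Not described are 27844 barcodes that met no gate. Also left out are 3966 mesenchyme barcodes with neither gene, and endothelium with neither (1612) or both (402). UMIs were summed over the barcodes of a class in a library, and sums of fewer than 20 barcodes were left out. A level is therefore a mean over a class, and a change of level within cells and a change in the mix of cells that pass a gate cannot be told apart.

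The check markers were read as summed levels in each class. The 6 cardiomyocyte markers held 24532 to 34089 CPM in cardiomyocytes of the hearts from E12.5 to P3, and 7 epicardial markers 967 to 4248 CPM in epicardium. The 6 mesenchyme markers (Hapln1, Vcan, Fbln2, Dpt, Fstl1 and Gpc3) held 1760.3 to 3329 CPM in Sox9 mesenchyme of the hearts, but in Tcf21 mesenchyme they were at 740.2 and 788 CPM at E14.5, below the 1198 and 1250.3 CPM of epicardium. At E10.5 they did not mark mesenchyme, with 304 and 284 CPM with Sox9 and 237 and 232 CPM with Tcf21 against 443 and 479 CPM in cardiomyocytes, and the same held at E8.5, so that mesenchyme of these embryos stands for its gate genes alone. The 6 mural markers (Pdgfrb, Notch3, Higd1b, Kcnj8, Abcc9 and Cspg4) summed to 2156 and 2196 CPM in the 2 E16.5 libraries of the Rgs5 gate but to 161 and 199.7 CPM at E12.5, where Higd1b was at 0 in both. Barcodes of this gate at E12.5 are therefore called cells with Rgs5. At E12.5 only 15 and 18 barcodes held Tcf21 without Sox9, so that contrasts against mesenchyme with Tcf21 rest on E14.5 and E16.5, and changes with stage in Tcf21 mesenchyme were taken from barcodes with Tcf21, with or without Sox9. Free RNA was read from barcodes of 1 to 100 UMIs where a matrix held them (not at P3), and its part, and that of doublets, in the class levels was not tested. Cardiomyocyte markers reached 419 to 1378 CPM in Sox9 mesenchyme, epicardium and Npr3 endothelium of the hearts from E12.5 to P3, and the collagen sum in erythroid barcodes, which should lack collagens, was 55.1 and 72.4 CPM at E12.5, 211 and 160.1 CPM at E16.5 and 919.8 CPM at P3. These barcodes held 6.58 to 40.8 CPM of endothelium markers from E12.5 to E16.5 but 468 CPM at P3, so their P3 level is not a clean background. Network chains were 59.0% of their collagen UMIs at P3. Macrophages (gated on C1qa, C1qb, C1qc, Csf1r, Fcer1g and Tyrobp) held 32.8 to 91.3 CPM of all collagens from E12.5 to E16.5 and 815 CPM at P3. Several contrasts below share the sums of Tcf21 mesenchyme and are not independent of each other.

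Collagens are trimers of alpha chains, each with a stretch of repeated Gly-X-Y triplets, and each chain has its own gene. Fibrillar collagens (types I, II, III, V, XI, XXIV and XXVII) build the fibrils that bear tension, network collagens (IV, VIII and X) build sheets, type VI forms beaded filaments, and FACIT collagens (such as IX, XII, XIV and XVI) sit on fibril surfaces. Transmembrane collagens (XIII, XVII, XXIII and XXV) are anchored in the cell membrane, and the multiplexins XV and XVIII belong to the basement membrane zone. In the heart, fibroblasts lay down types I and III, valves hold layered fibrillar matrix, and every myocyte and vessel rests on a type IV sheet.

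Of the 44 genes, 25 exceeded 50 CPM in at least 1 class sum, and 8 stayed at 10 CPM or less in every one. These 8 were Col6a4, Col7a1, Col10a1, Col17a1, Col19a1, Col20a1, Col22a1 and Col28a1. The filter on low counts left 38 members in at least 1 of the tests, and the other 6 (Col6a4, Col10a1, Col17a1, Col19a1, Col20a1 and Col28a1) entered none. All 44 gene identifiers matched GENCODE M21 on GRCm38, which is the mm10 assembly of the submitters' processing notes. Fibrillar collagens took 68.3% to 77.5% of the collagen UMIs in Sox9 mesenchyme of E12.5 to E16.5 and 78.2% to 92.3% in epicardium. Network collagens took 43.5% to 46.7% in Npr3 endothelium and 64.6% to 74.1% in Fabp4 endothelium, where multiplexins added 13.2% to 19.996% and 19.04% to 25.5%. Cardiomyocytes held the least collagen of these classes, 329.9 to 422 CPM over all members from E12.5 to E16.5.

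**Figure D1:**
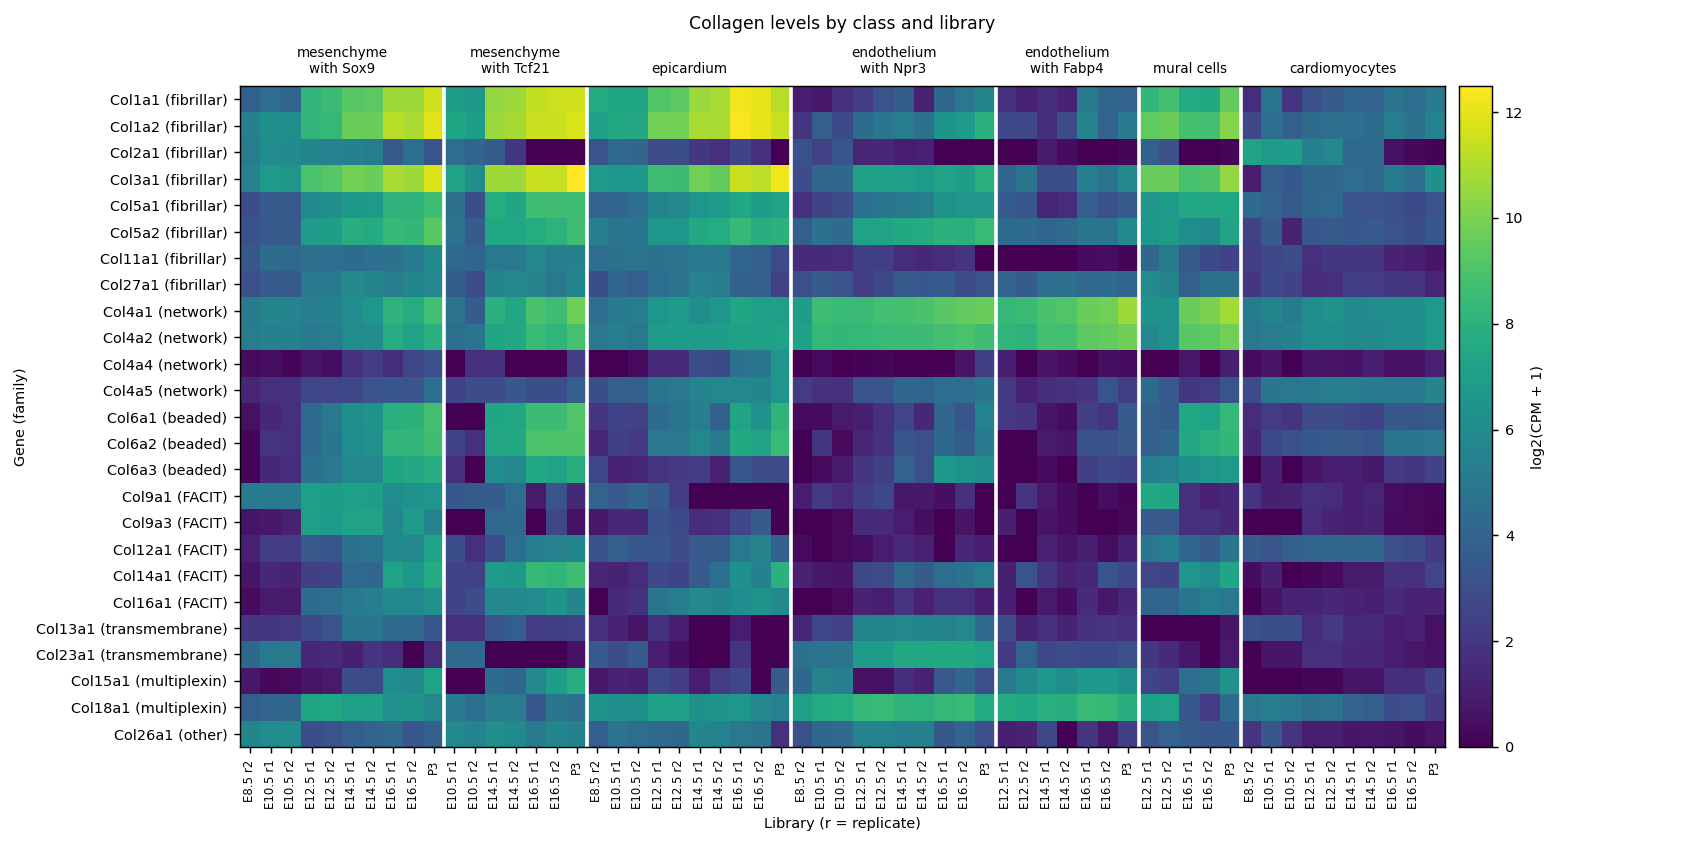
Levels of the 25 collagen genes that exceeded 50 CPM in a class sum, as log2(CPM + 1), with genes (family in brackets) in rows and class sums of single libraries in columns, grouped by class. Types I and III are high in mesenchyme and epicardium from E12.5, type IV and Col18a1 in endothelium, and Col2a1 in cardiomyocytes and Sox9 mesenchyme up to E14.5.

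Most collagens rose between E12.5 and E16.5 in mesenchyme and epicardium, and Col18a1 fell in all 3 classes tested, with Col2a1, Col9a1 and Col9a3 in both kinds of mesenchyme. The sum of all 44 genes in Sox9 mesenchyme was 2020.0 and 2241 CPM in the 2 libraries of E12.5, 3719 and 3702 CPM at E14.5, 8304 and 7761 CPM at E16.5 and 14289.9 CPM at P3. In epicardium it was 2619.5 and 2729.9 CPM at E12.5 and 14614 and 12210.4 CPM at E16.5, and 11752 CPM at P3, where 22 barcodes make up the class. Libraries of different stages did not overlap in either class from E12.5 to E16.5. In edgeR's quasi-likelihood test, adjusted after Benjamini and Hochberg over every tested gene, 24 of 29 tested members were higher at E16.5 and 4 lower in Sox9 mesenchyme, where 15.2% of all tested genes were higher and 13.6% lower. In Tcf21 mesenchyme 21 of 28 were higher and 4 lower, beside 20.9% and 18.8% of all genes. In epicardium 16 of 21 were higher and 1 lower, beside 16.4% and 13.2%. The median log2 fold change of the tested members was 2.38, 2.41 and 1.61 in these 3 classes, against 0.00, 0.00 and -0.01 over all tested genes. Markers of other cells moved over the same stages. In Sox9 mesenchyme the endothelium markers went from 314 and 269.6 CPM at E12.5 to 457 and 616 CPM at E16.5, and the 3 smooth muscle markers from 1387 and 1274 to 822 and 791 CPM. In barcodes with both Sox9 and Tcf21 the smooth muscle markers went from 1085 and 986 to 430.4 and 302 CPM. In epicardium they went from 458 and 357 to 45.5 and 26.5 CPM, and the endothelium markers from 31.8 and 36.2 to 125 and 115 CPM. Mural markers went from 80.03 and 89.01 to 238 and 127 CPM with Sox9 alone. With both genes the endothelium markers went from 309 and 251 to 411 and 436 CPM, mural markers from 74.9 and 78.7 to 127 and 127 CPM and mesenchyme markers from 1819 and 1826 to 1165 and 1212 CPM. The part of these markers in the collagen changes was not tested.

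Types I and III, the main fibrils of the interstitium, were the most abundant of the members that rose. Col1a1 (chr11:94936224-94953042, plus strand) stood at 292 and 375 CPM in Sox9 mesenchyme at E12.5, 609.9 and 642 CPM at E14.5, 1614 and 1690.5 CPM at E16.5 and 3032 CPM at P3. Its log2 fold change from E12.5 to E16.5 was 2.38 ± 0.10 (adjusted p = 1.9e-14) in edgeR. Every later heart library was above every earlier one. In epicardium Col1a1 went from 550.0 and 644 CPM at E12.5 to 4710.0 and 4231 CPM at E16.5, the highest level of this gene in any class sum, a log2 fold change of 2.91 ± 0.12 (adjusted p = 1.2e-16). At P3 it was 2291 CPM (2155 to 2433) in epicardium, where the interval is an exact 95% Poisson interval that, like all such intervals here, covers counting error only. Differences between the P3 wells lie outside such intervals. The sum of all collagens in cardiomyocytes was 429 CPM in well 1 and 707 CPM in well 2, and network chains in mural cells summed to 3221 and 2065 CPM. Col3a1 (chr1:45311538-45349706, plus strand), whose homotrimers mix with type I in soft tissue, went from 500.5 and 577 CPM to 1859 and 1619.8 CPM in Sox9 mesenchyme and from 394 and 373 CPM to 2859 and 2429 CPM in epicardium, log2 fold changes of 1.77 ± 0.10 and 2.80 ± 0.12. Its highest level was 5749 CPM (5673 to 5826) in Tcf21 mesenchyme at P3. The erythroid level of Col3a1 was 44.3 and 26.4 CPM at E16.5 and 106 CPM at P3, and its part in these class levels was not tested. At P3 the fibrillar chains in erythroid barcodes summed to 98.9 CPM in well 1 and 529 CPM in well 2.

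**Figure D2:**
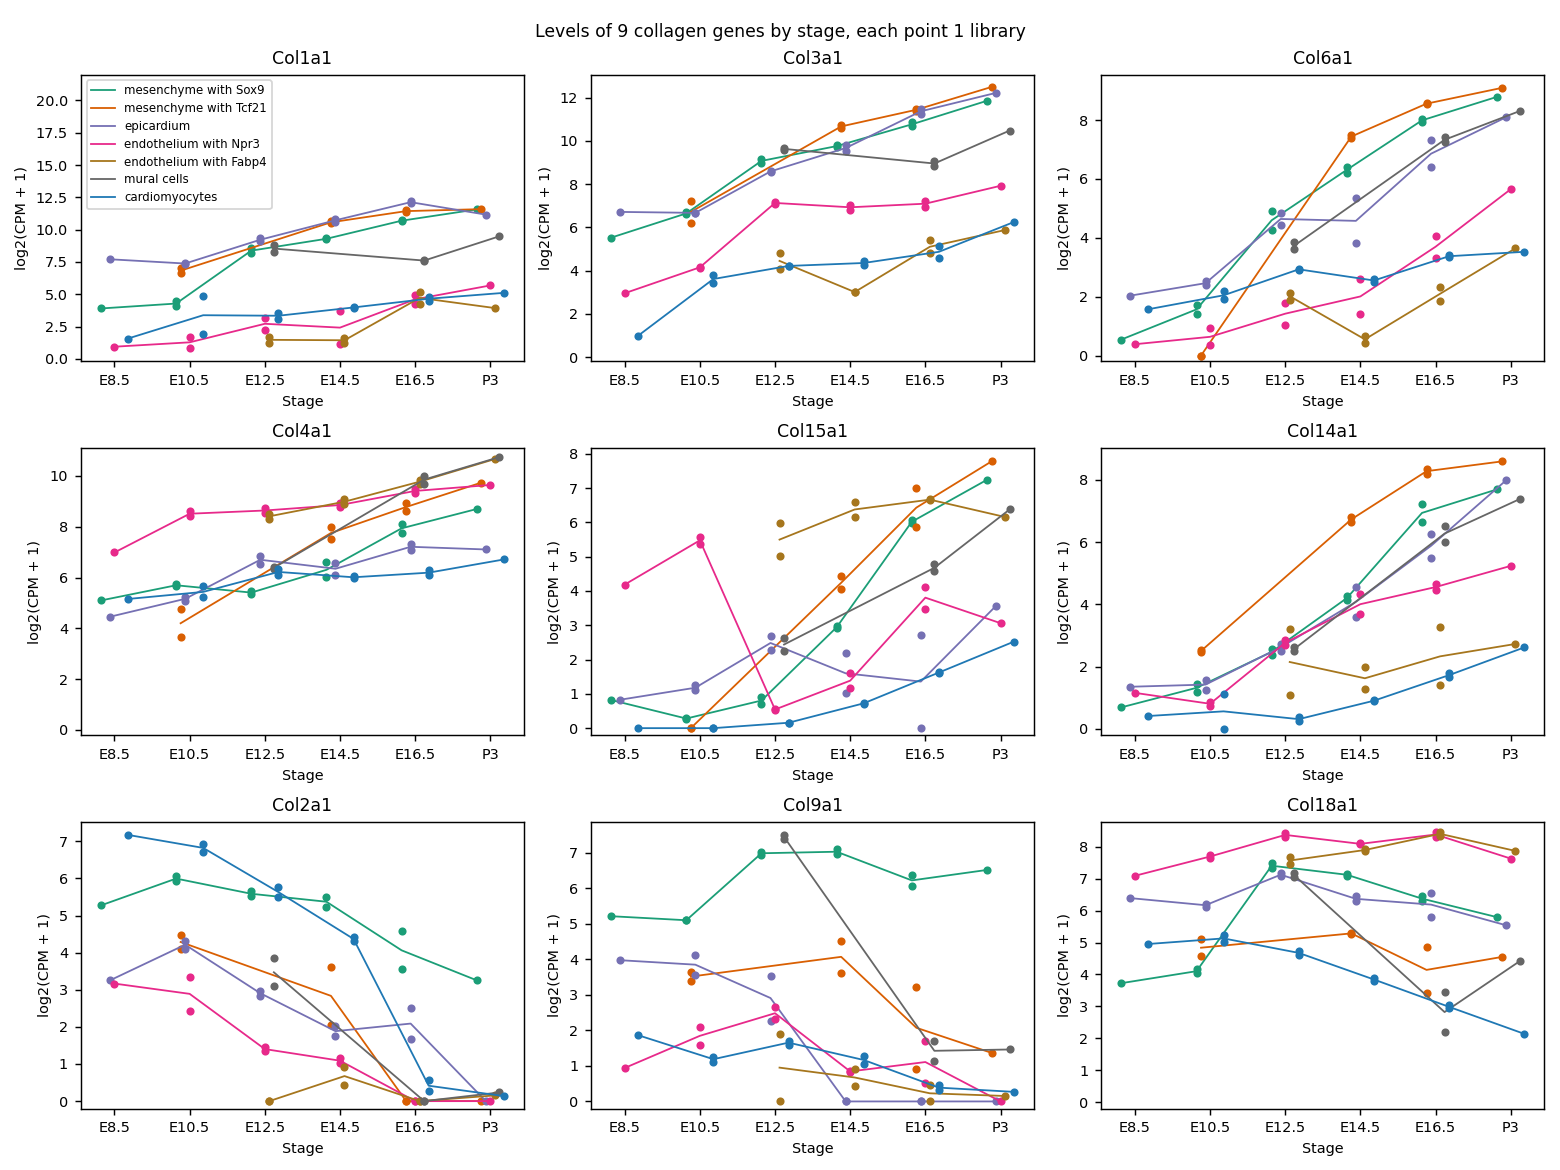
Levels of 9 collagen genes as log2(CPM + 1) by stage in 7 classes, where each point is 1 library and lines join the means of a stage. In mesenchyme and epicardium Col1a1 and Col3a1 climb up to E16.5, Col15a1 in Sox9 mesenchyme is near 0 up to E12.5 and climbs after, and Col2a1 falls in cardiomyocytes and Sox9 mesenchyme.

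Type V, a minor fibrillar collagen that helps to start fibrils, rose as well. Col5a1 went from 63.01 and 70.2 CPM to 281 and 274 CPM in Sox9 mesenchyme, a log2 fold change of 2.13 ± 0.10, and Col5a2 from 119.6 and 121 CPM to 326 and 303 CPM, a log2 fold change of 1.47 ± 0.09. Of the beaded type VI, which binds cells to the surrounding matrix, Col6a1 (chr10:76708792-76726168, minus strand) was 1.68 and 2.29 CPM in Sox9 mesenchyme at E10.5, 18.3 and 29.4 CPM at E12.5 and 246 and 261 CPM at E16.5. Its log2 fold change from E12.5 to E16.5 was 3.46 ± 0.15 (adjusted p = 1.3e-14) in edgeR, and those of Col6a2 and Col6a3 were 3.69 ± 0.14 and 2.69 ± 0.12. Epicardium gained Col6a1 and Col6a2, with log2 fold changes of 2.43 ± 0.25 and 2.51 ± 0.18, but Col6a3, the largest chain of the trimer, was at 1.18 to 9.28 CPM there through P3. Col6a3 was not among the tested genes of epicardium. Col6a6 rose in all 3 classes, from 1.24 to 3.64 CPM in Sox9 mesenchyme and epicardium at E12.5 to 28.7 to 39.02 CPM at E16.5.

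Among the genes near the floor at E12.5, Col15a1 and Col14a1 reached 50 CPM or more and had large increases in mesenchyme. Col15a1 (chr4:47208161-47313167, plus strand), a multiplexin of the basement membrane zone, was 0.621 and 0.883 CPM in Sox9 mesenchyme at E12.5, 6.81 and 6.56 CPM at E14.5, 65.9 and 61.8 CPM at E16.5 and 150.4 CPM (132 to 171) at P3. Its log2 fold change from E12.5 to E16.5 was 6.42 ± 0.25 (adjusted p = 2.5e-15) there and 6.48 ± 0.21 (adjusted p = 1.1e-21) in Tcf21 mesenchyme by edgeR. In epicardium it was 0 to 5.57 CPM from E12.5 to E16.5 and 10.8 CPM (3.52 to 25.3) at P3. Col14a1, a FACIT of dense connective tissue, went from 4.23 and 4.91 CPM to 148 and 100.1 CPM in Sox9 mesenchyme and from 5.68 and 4.66 CPM to 76.1 and 44.2 CPM in epicardium, log2 fold changes of 4.85 ± 0.19 and 3.64 ± 0.30. The FACITs Col12a1 and Col16a1 rose by 2.68 ± 0.17 and 1.52 ± 0.15 on the log2 scale in Sox9 mesenchyme. The network chain Col8a1 rose too, from 0 to 0.687 CPM to 8.04 to 10.3 CPM, as did Col8a2, from 0 to 0.124 CPM to 4.82 to 6.63 CPM. Free RNA of the E16.5 libraries held 10.6 to 12.2 CPM of Col15a1 and 10.8 to 16.1 CPM of Col14a1, below the mesenchymal levels.

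The 4 members that fell in Sox9 mesenchyme also fell in Tcf21 mesenchyme. Col2a1 (chr15:97975602-98004695, minus strand), the main fibrillar chain of cartilage, was 49.5 and 44.8 CPM in Sox9 mesenchyme at E12.5, 44.5 and 36.7 CPM at E14.5, 10.7 and 22.8 CPM at E16.5 and 8.54 CPM (4.55 to 14.6) at P3, all of it in well 1 of the P3 matrix. Its log2 fold change was -1.48 ± 0.22 (adjusted p = 1.3e-05) in edgeR. Col9a1 (chr1:24177610-24252684, plus strand), a chain of the FACIT that coats type II fibrils, went from 129.7 and 122 CPM to 65.9 and 82.5 CPM, a log2 fold change of -0.70 ± 0.12 (adjusted p = 7.6e-05), and Col9a3 from 136 and 119 CPM to 56.8 and 114 CPM, a log2 fold change of -0.55 ± 0.16 (adjusted p = 0.012). The 2 libraries of E16.5 lay apart for Col9a3, and without replicate 1 of E16.5 its change was -0.13 (adjusted p = 0.59). Col18a1, the multiplexin that is the source of endostatin, went from 159 and 179 CPM to 78.2 and 86.1 CPM, a log2 fold change of -0.97 ± 0.11 (adjusted p = 4.8e-07). Of the cartilage genes, Acan was at 0.124 to 1.61 CPM and Matn1 at 0 to 0.249 CPM in Sox9 mesenchyme of E12.5 to E16.5, and Acan at 16.4 CPM at P3.

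Where Tcf21 was present the fall was deeper for several of these genes. In barcodes with both Sox9 and Tcf21, Col9a1 was 93.4 and 88.4 CPM at E12.5, 27.7 and 39.98 CPM at E14.5 and 5.47 and 5.49 CPM at E16.5, and Col2a1 was 38.6 and 47.2 CPM, 12.3 and 10.9 CPM and 1.64 and 0.305 CPM at these stages. With Sox9 alone the E12.5 values of Col2a1 were in the same range and those of Col9a1 somewhat higher, and at E16.5 both genes were lower with Tcf21 in every library. The 3 neural markers (Sox2, Elavl3 and Tubb3) were also lower at E16.5. They went from 97.1 and 71.6 to 12.3 and 31.7 CPM with Sox9 alone and from 72.8 and 67.3 to 5.29 and 4.27 CPM with both genes, and their part in these falls was not tested. The difference between the 2 changes was tested in 1 fit. The change from E12.5 to E16.5 was lower in Tcf21 mesenchyme than in Sox9 mesenchyme for 7 of 34 members and higher for 0 (edgeR, adjusted p under 0.05), beside 1.72% lower and 1.33% higher among all tested genes. At an unadjusted p under 0.05, 6 members were higher, and DESeq2 called 0 higher and 6 lower. The difference was -3.52 ± 0.28 (adjusted p = 9.5e-12) for Col9a3, -3.15 ± 0.27 (adjusted p = 2.7e-11) for Col9a1, -3.68 ± 0.53 (adjusted p = 5.6e-06) for Col2a1, -1.74 ± 0.19 (adjusted p = 4.1e-09) for Col18a1 and -1.39 ± 0.25 (adjusted p = 0.0002) for Col9a2. Col13a1 and Col8a2 made up the count, at -1.72 ± 0.37 (adjusted p = 0.003) and -4.06 ± 1.19 (adjusted p = 0.049). Without replicate 2 of E12.5 the Col8a2 difference was -1.48 (adjusted p = 0.86), and without replicate 1 of E16.5 that of Col13a1 was -1.77 (adjusted p = 0.084). Types I, III and VI did not pass this test, with differences of 0.55 ± 0.28 for Col1a1, 0.55 ± 0.20 for Col3a1 and 0.01 ± 0.24 for Col6a1.

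**Figure D3:**
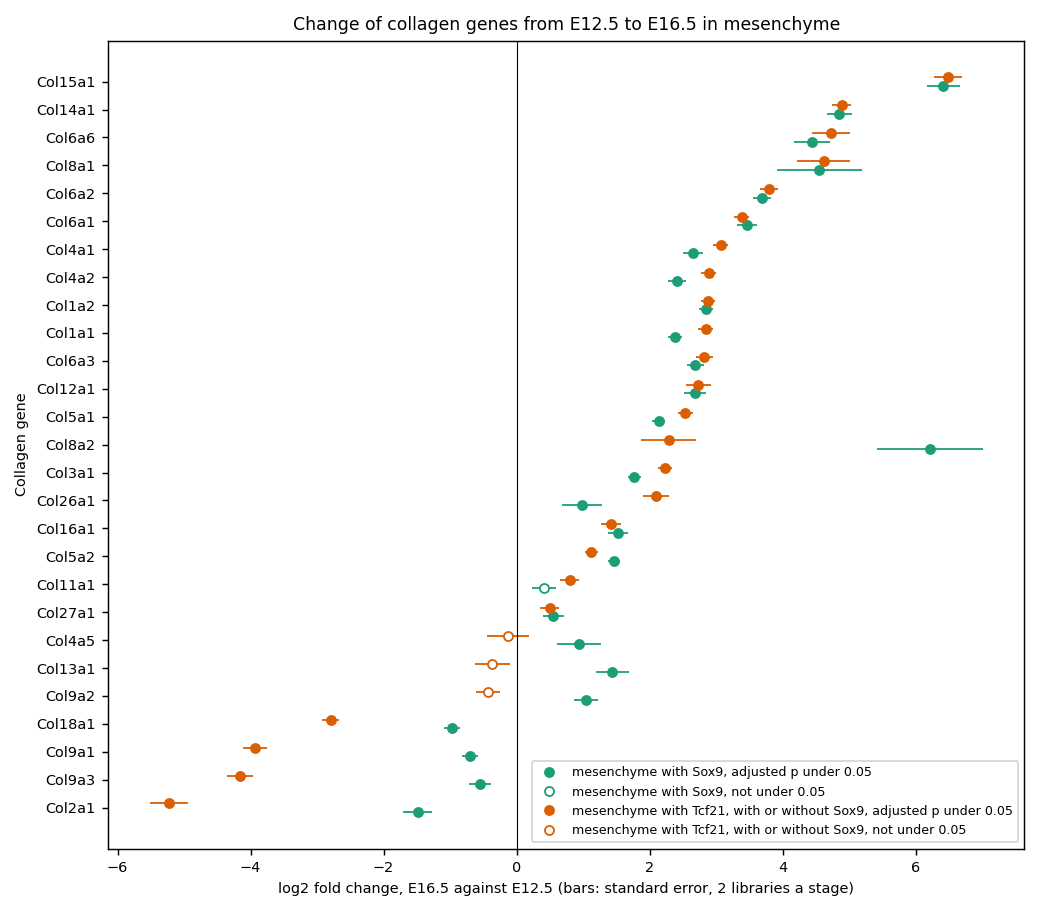
Log2 fold change from E12.5 to E16.5 of the collagen genes tested in both mesenchyme classes, with bars of 1 standard error and filled points where the adjusted p was under 0.05. Points of the 2 classes lie close together for most genes, and lie apart for Col2a1, Col9a1, Col9a3, Col18a1, Col9a2 and Col13a1, where the Tcf21 value is lower.

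Levels at matched stages differed between the 2 kinds of mesenchyme, with Col2a1, type IX and Col18a1 on the Sox9 side. Over E14.5 and E16.5, 6 of 35 tested members were higher in Sox9 mesenchyme and 14 higher in Tcf21 mesenchyme by edgeR, where 6.47% and 4.68% of all tested genes were. The median log2 difference was -0.11 over members and 0.09 over all genes. With Tcf21 counted with or without Sox9 and all 3 stages, the median over members was 0.13, so that its sign is not settled. Higher with Sox9 were Col2a1, all 3 type IX genes, Col18a1 and Col13a1. Col9a3 (chr2:180597790-180622189, plus strand) was 147 and 148 CPM with Sox9 and 18.2 and 18.8 CPM with Tcf21 at E14.5, and 56.8 and 114 CPM against 0 and 5.58 CPM at E16.5. The log2 difference was 3.99 ± 0.31 (adjusted p = 1.3e-13), and the groups did not overlap within a stage. Those of Col9a1 and Col2a1 were 3.53 ± 0.29 and 6.27 ± 0.93, and that of Col18a1 was 1.94 ± 0.18. Markers of other cells differed between the classes too. At E14.5 the endothelium markers were 564 and 541 CPM with Sox9 and 173 and 238 CPM with Tcf21, the neural markers 44.7 and 50.97 CPM against 6.81 and 3.13 CPM, and the smooth muscle markers 838 and 887 CPM against 313 and 581 CPM. At E16.5 the endothelium markers were 457 and 616 CPM against 327 and 352 CPM, and the neural markers 12.3 and 31.7 CPM against 1.78 and 0 CPM. The smooth muscle markers were 822 and 791 CPM against 589 and 441 CPM at that stage. The epicardial markers went the other way, at 65.8 and 52.8 CPM against 175 and 175 CPM at E14.5. At E16.5 they were 88.4 and 73.6 CPM against 118 and 130 CPM. Their part in these differences was not tested.

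Lower with Sox9 were Col1a1, Col1a2, Col3a1 and Col5a1 of the fibrils, Col6a1 and Col6a2 of type VI, and Col4a1 and Col4a2 of type IV, whose other 4 genes did not pass. Col14a1 was 18.2 and 16.7 CPM with Sox9 and 111 and 100.03 CPM with Tcf21 at E14.5, and 148 and 100.1 CPM against 327 and 295 CPM at E16.5, a log2 difference of -2.07 ± 0.19 (adjusted p = 8.1e-12) by edgeR. Col26a1, a member outside the main families, differed by -2.01 ± 0.26, but by -0.58 (adjusted p = 0.74) when sums of at least 10 barcodes were admitted, which brings in E12.5. Col4a1 differed by -1.29 ± 0.13, Col1a1 by -1.13 ± 0.14 and Col3a1 by -0.91 ± 0.10. At P3, with 1 matrix and no test, Col1a1 was 3032 CPM (2945 to 3121) with Sox9 and 3072 CPM (3016 to 3128) with Tcf21, and Col3a1 was 3693 CPM (3597 to 3791) and 5749 CPM (5673 to 5826). Col14a1 was 207 CPM (185 to 231) and 386 CPM (367 to 406). Contrasts of this class rest on sums of 31 to 79 barcodes, and with Tcf21 counted with or without Sox9 and all 3 stages the counts were 11 higher and 13 lower of 34, beside 8.58% and 8.28% of all genes.

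In E10.5 embryos, where mesenchyme with Tcf21 alone had 24 barcodes in each library, 3 of 35 members were higher with Sox9 and 1 lower by edgeR, beside 3.54% and 0.939% of all genes. Col2a1 was 66.3 and 59.6 CPM with Sox9 and 21.4 and 16.05 CPM with Tcf21, a log2 difference of 1.93 ± 0.36 (adjusted p = 0.00057). Col1a1 was 21.1 and 16.1 CPM with Sox9 and 128 and 98.6 CPM with Tcf21, a difference of -2.43 ± 0.39 (adjusted p = 6.4e-05). Col9a1 and Col4a1 also passed, at 1.84 ± 0.49 and 1.62 ± 0.41. Without replicate 2 of E10.5 the 3 genes that were higher no longer passed, with Col2a1 at 1.77 (adjusted p = 0.07). With Tcf21 counted with or without Sox9, 5 members were higher and 2 lower of 34, beside 1.36% and 1.46% of all genes. The median log2 difference of all tested genes was 0.30 here and -0.05 in DESeq2, which called 3 members higher and 3 lower, with 64 of all genes higher and 441 lower where edgeR had 467 and 124. Of the 35 tested members, 9 had no UMI in the 48 barcodes with Tcf21, and the median of the tested members was 0.54 as fitted and -0.67 with these genes held at 3 counts, so that its sign is not settled.

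Epicardium differed from Tcf21 mesenchyme in members of several families, among them network chains, type VI and Col14a1. Of 35 members, 20 passed in edgeR over E14.5 and E16.5, 6 higher in epicardium and 14 lower, beside 26.0% of all genes that passed in either direction, with medians of -0.31 and 0.04. With Tcf21 counted with or without Sox9 and all 3 stages, 12 of 34 were higher and 14 lower, beside 47.1% of all genes in either direction, and DESeq2 called 13 higher and 11 lower. Col4a5, an X-linked chain of a second type IV network, was 46.8 and 56.8 CPM in epicardium at E14.5 against 6.81 and 9.38 CPM in Tcf21 mesenchyme, and 55.7 and 53.05 CPM against 7.13 and 6.98 CPM at E16.5, a log2 difference of 2.84 ± 0.27 (adjusted p = 5.8e-12). Col4a4, a chain of the network that also holds Col4a3 and Col4a5, rose in epicardium from 1.82 and 1.82 CPM at E12.5 to 24.1 and 28.7 CPM at E16.5 and 88.9 CPM (63.8 to 121) at P3, with a log2 fold change to E16.5 of 3.78 ± 0.43. At P3 the other classes held 0.337 to 7.23 CPM of it. Its partner Col4a3 reached its highest level, 23.9 CPM (11.9 to 42.7), in the same class and stage. Lower in epicardium were Col4a1 and Col4a2, with log2 differences of -1.49 ± 0.15 and -0.88 ± 0.12, all 3 main chains of type VI, with Col6a3 at -4.33 ± 0.33, and Col14a1 at -2.45 ± 0.23. With sums of at least 10 barcodes, which brings in E12.5, the Col4a2 difference was -0.12 (adjusted p = 0.59). Mural markers were 18.3 to 28.4 CPM in epicardium and 116 to 233 CPM in Tcf21 mesenchyme at E14.5 and E16.5. Endothelium markers were 35.6 to 125 CPM and 173 to 352 CPM in these classes, and smooth muscle markers 26.5 to 50.9 CPM and 313 to 589 CPM. The part of these markers in the differences was not tested. Col1a1 was higher by 0.44 ± 0.14 (adjusted p = 0.017), but without replicate 1 of E16.5 the value was 0.26 (adjusted p = 0.35), and in DESeq2 it was 0.45 (adjusted p = 0.37). Col3a1 was lower, at -0.51 ± 0.10, and with at least 3 UMIs of Upk3b and 2 of Tcf21 it was -0.05 (adjusted p = 0.92).

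Within endothelium, the Npr3 and Fabp4 classes both held high type IV and Col18a1, and 15 members were higher with Npr3. By edgeR over E12.5, E14.5 and E16.5, 15 of 35 members were higher with Npr3 and 4 with Fabp4, beside 24.4% and 23.2% of all tested genes, and the median log2 difference was 1.76 over members and 0.09 over all. The transmembrane collagens XIII, XXIII and XXV were on the Npr3 side. Col23a1 (chr11:51289920-51583918, plus strand) was 113 and 116 CPM with Npr3 at E12.5, 187 and 174 CPM at E14.5 and 189 and 193 CPM at E16.5, and 3.38 to 15.1 CPM with Fabp4. The log2 difference was 4.42 ± 0.12 (adjusted p = 4.4e-31), and no library of one class reached the other. Col13a1 (chr10:61838236-61979108, minus strand) was 46.4 to 54.9 CPM with Npr3 and 1.37 to 6.76 CPM with Fabp4, a difference of 4.07 ± 0.18 (adjusted p = 1.9e-23), and Col25a1 differed by 3.42 ± 0.20. Outside endothelium, Col23a1 was 32.7 and 30.6 CPM in Sox9 mesenchyme at E10.5 and 0 to 3.09 CPM in the other classes of E12.5 to E16.5.

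Col5a2, Col3a1 and Col26a1 were also higher with Npr3. The 6 mesenchyme markers were higher there as well, at 398 to 828 CPM with Npr3 and 116 to 281 CPM with Fabp4, and their part in these differences was not tested. Col5a2 was 148 to 262 CPM with Npr3 and 15.95 to 28.01 CPM with Fabp4, a log2 difference of 3.07 ± 0.11 (adjusted p = 4.6e-28) by edgeR. Col3a1 was 111 to 149 CPM and 7.01 to 41.3 CPM, a difference of 2.81 ± 0.15 (adjusted p = 1.7e-21). Free RNA of the heart libraries held 70.5 to 199 CPM of Col3a1, and erythroid barcodes 4.85 to 44.3 CPM, so that the Fabp4 level lies in the range of erythroid barcodes and the Npr3 level above it, but within the range of free RNA. The part of free RNA in this difference was not tested. Col26a1 was 44.999 and 48.9 CPM with Npr3 at E12.5 and 9.80 and 15.8 CPM at E16.5, and 0 to 5.61 CPM with Fabp4, a difference of 3.77 ± 0.31 (adjusted p = 2.2e-14). Col6a3 with Npr3 went from 2.92 and 4.09 CPM at E12.5 to 98.8 and 84.9 CPM at E16.5, a log2 fold change of 4.54 ± 0.19 (adjusted p = 1.3e-14), beside 2.87 and 1.56 CPM in erythroid barcodes at E16.5.

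Col15a1 had the largest difference of the 4 members that were higher with Fabp4. It was 31.6 and 61.7 CPM with Fabp4 at E12.5, 96.01 and 70.1 CPM at E14.5 and 102 and 99.005 CPM at E16.5, and 0.461 and 0.455 CPM, 2.05 and 1.23 CPM and 10.2 and 16.4 CPM with Npr3. The log2 difference was -5.17 ± 0.21 (adjusted p = 1.8e-24) in edgeR. Epicardial markers were 37.0 to 75.1 CPM with Fabp4 and 3.96 to 9.24 CPM with Npr3 from E12.5 to E16.5. Mural markers were 58.6 to 101 CPM and 34.1 to 43.4 CPM at E14.5 and E16.5. At E12.5 they were lower with Fabp4, at 23.7 and 13.7 CPM against 32.1 and 36.0 CPM. The part of these markers in the differences was not tested. In E10.5 embryos, where the Fabp4 class had under 20 barcodes, the Npr3 class had 46.9 and 40.3 CPM of Col15a1, and at E8.5 17.2 CPM (12.98 to 22.3). Tissue changes from embryo to heart between E10.5 and E12.5, and tissue and stage cannot be told apart in this drop. Col27a1, a fibrillar chain, was lower with Npr3, at -1.34 ± 0.19. Col4a1 and Col4a2 differed little, by -0.21 ± 0.08 (adjusted p = 0.022) and -0.27 ± 0.06 (adjusted p = 0.00026), and the Col4a1 difference was -0.09 (adjusted p = 0.35) with at least 2 UMIs of Npr3 or Fabp4. Col18a1 differed by 0.20 ± 0.06 (adjusted p = 0.011), and without the barcodes over the 95th percentile of UMIs the sign turned, to -0.07 (adjusted p = 0.51).

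**Figure D4:**
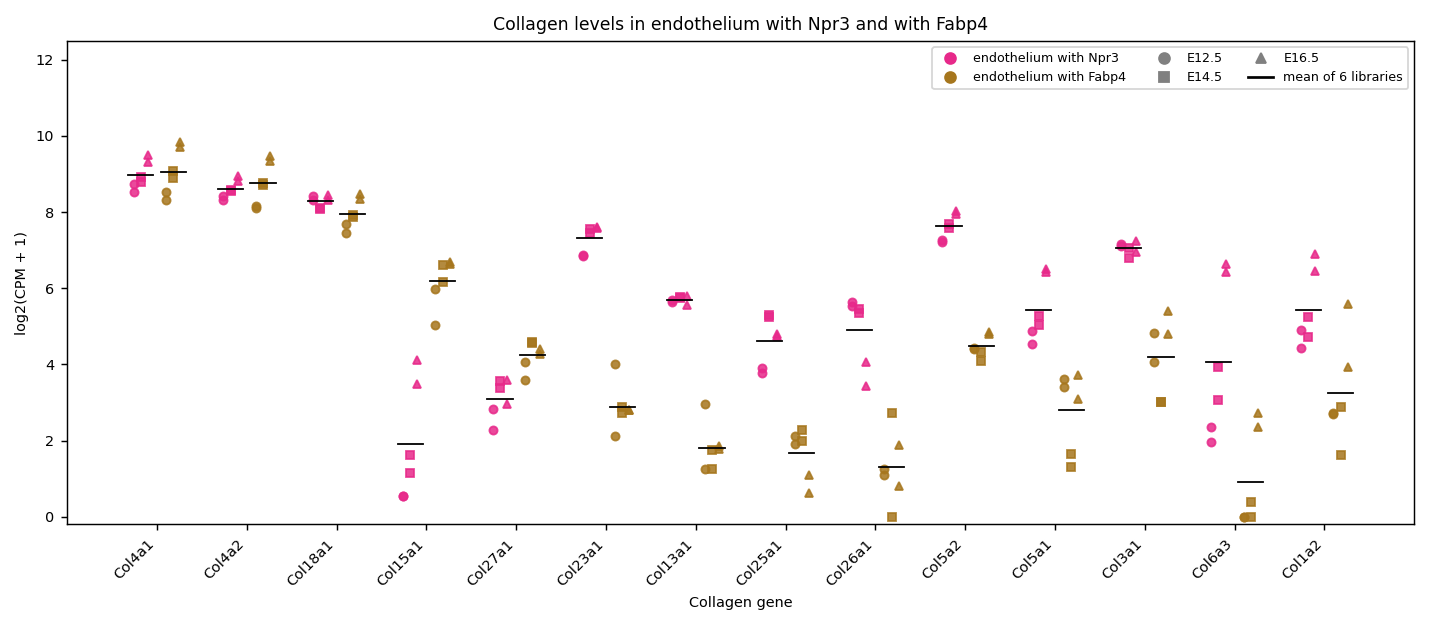
Levels of 14 collagen genes as log2(CPM + 1) in endothelium with Npr3 and with Fabp4, where each point is 1 library of E12.5, E14.5 or E16.5 and black lines are the means of 6 libraries. The classes overlap for Col4a1, Col4a2 and Col18a1, Fabp4 is higher for Col15a1, and Npr3 is higher for Col23a1, Col13a1, Col25a1, Col5a2 and Col3a1.

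With stage, 14 of 21 tested members rose and 2 fell in the Npr3 class from E12.5 to E16.5 by edgeR, beside 21.0% and 23.1% of all genes. In the Fabp4 class 8 of 14 rose and 0 fell, beside 12.6% and 14.7%. Fewer were called without replicate 1 of E12.5, where this class has 25 barcodes. At an unadjusted p under 0.05 and in DESeq2, 0 members fell in the Fabp4 class as well. Over the same stages the mesenchyme markers went from 398 and 454 to 823 and 828 CPM in the Npr3 class, and in the Fabp4 class the mural markers went from 23.7 and 13.7 to 101 and 85.6 CPM. Their part in the collagen changes was not tested. Col4a1 with Fabp4 was 316 and 365 CPM at E12.5, 473 and 541 CPM at E14.5, 831 and 921 CPM at E16.5 and 1623 CPM (1596 to 1649) at P3, a log2 fold change of 1.26 ± 0.11 (adjusted p = 2.2e-07) to E16.5. With Npr3 it was 370.2 and 427 CPM at E12.5, 637 and 724 CPM at E16.5 and 799.6 CPM (744 to 858) at P3, a change of 0.61 ± 0.10 (adjusted p = 2.5e-05). The Fabp4 count includes Col1a1 and Col1a2 at 35.6 and 17.9 and 47.1 and 14.2 CPM at E16.5, where erythroid barcodes held 45.8 and 24.4 and 57.9 and 31.8 CPM. It also includes Col6a2 and Col6a3, which had no UMI in the 53 barcodes of E12.5 and were at least 4.16-fold and 2.54-fold higher at E16.5 when E12.5 was held at 3 counts.

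Type IV collagen is the sheet-forming collagen of basement membranes, and its common form combines the products of Col4a1 and Col4a2. Col4a1 (chr8:11198423-11312826, minus strand) and Col4a2 (chr8:11312805-11449287, plus strand) lie head to head on mm10 and their start sites are 21 bases apart, and Col4a5 and Col4a6 lie head to head on the X chromosome with 1343 bases between start sites. Col4a3 and Col4a4 on chromosome 1 also lie head to head, 71 bases apart, and are not shown. The 4 promoter windows of the first 2 pairs are shown because both members of a pair read away from a shared region, and their levels are set side by side below. Windows are RefSeq's on GRCm38.p6, from 250 bases before to 50 bases after the start site, read 5′ to 3′ on the gene's own strand. Capitals mark GGGCGG, the core of the GC box, and CCAAT, on either strand, and TATAAA was searched too. The windows of Col4a1 (chr8:11312777-11313076, minus strand) and Col4a2 (chr8:11312555-11312854, plus strand) overlap by 78 bases, and those of Col4a5 (chrX:141475169-141475468, plus strand) and Col4a6 (chrX:141474027-141474326, minus strand) do not overlap.
Col4a1: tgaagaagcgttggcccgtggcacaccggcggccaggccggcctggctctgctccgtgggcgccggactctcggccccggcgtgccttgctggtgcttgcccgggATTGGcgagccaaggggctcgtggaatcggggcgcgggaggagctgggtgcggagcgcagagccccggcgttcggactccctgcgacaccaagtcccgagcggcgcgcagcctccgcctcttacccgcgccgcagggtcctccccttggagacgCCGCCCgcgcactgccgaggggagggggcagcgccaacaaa
Col4a2: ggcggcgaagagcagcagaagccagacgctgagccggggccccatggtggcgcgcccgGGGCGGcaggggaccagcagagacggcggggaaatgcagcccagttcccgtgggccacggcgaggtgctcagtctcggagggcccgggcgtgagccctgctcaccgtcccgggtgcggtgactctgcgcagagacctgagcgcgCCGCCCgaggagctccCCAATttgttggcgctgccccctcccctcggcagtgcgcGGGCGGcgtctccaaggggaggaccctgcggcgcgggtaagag
Col4a5: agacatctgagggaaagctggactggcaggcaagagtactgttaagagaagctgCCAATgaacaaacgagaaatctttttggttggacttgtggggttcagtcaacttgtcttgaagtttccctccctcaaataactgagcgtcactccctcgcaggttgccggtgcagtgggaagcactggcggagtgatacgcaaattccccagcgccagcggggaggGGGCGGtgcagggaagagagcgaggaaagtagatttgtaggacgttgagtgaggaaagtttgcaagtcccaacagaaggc
Col4a6: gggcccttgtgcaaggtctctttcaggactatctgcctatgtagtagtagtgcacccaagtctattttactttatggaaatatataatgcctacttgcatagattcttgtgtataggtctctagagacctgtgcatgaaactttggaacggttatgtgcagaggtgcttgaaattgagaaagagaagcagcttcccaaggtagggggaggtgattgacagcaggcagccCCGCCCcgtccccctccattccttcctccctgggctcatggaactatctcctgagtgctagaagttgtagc
All 4 windows held GGGCGG, which 35.7% of the 32851 RefSeq windows held, and the windows of Col4a1, Col4a2 and Col4a5 held CCAAT, which 37.4% held. None of the 4 held TATAAA, which 13.6% held. The only GGGCGG of the Col4a1 window lies in the overlap and is the same site as the last one marked for Col4a2. Windows of Col4a1 and Col4a2 were 74.0% and 73.7% G or C, and those of Col4a5 and Col4a6 52.7% and 48.3%. Over all collagens, 35 genes matched 38 windows, of which 23 held GGGCGG, 13 CCAAT and 5 TATAAA.

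Col4a1 and Col4a2 rose with stage in mesenchyme and Fabp4 endothelium. In Tcf21 mesenchyme the log2 fold changes from E12.5 to E16.5 were 3.07 ± 0.12 and 2.89 ± 0.11, in Sox9 mesenchyme 2.66 ± 0.15 and 2.41 ± 0.13, in Fabp4 endothelium 1.26 ± 0.11 and 1.17 ± 0.11, and in epicardium Col4a1 changed by 0.55 ± 0.17, while Col4a2 did not pass, at 0.20 ± 0.16. The epicardial change of Col4a1 was 0.34 (adjusted p = 0.27) without replicate 1 of E12.5, 0.35 (adjusted p = 0.39) without replicate 1 of E16.5 and 0.54 (adjusted p = 0.11) in DESeq2. The ratio of Col4a1 to Col4a2 UMIs was 0.979 to 1.39 in Sox9 mesenchyme from E12.5 to E16.5, 1.17 and 1.26 in Npr3 endothelium at E12.5 and 1.41 and 1.46 at E16.5. At P3 it was 1.71 (exact 95% binomial interval 1.498 to 1.94) in Sox9 mesenchyme, 2.05 (exact 95% binomial interval 1.81 to 2.33) in Npr3 endothelium, 1.87 (exact 95% binomial interval 1.82 to 1.92) in Fabp4 endothelium and 1.90 (exact 95% binomial interval 1.83 to 1.96) in mural cells. Cardiomyocytes had ratios of 1.05 and 1.12 in the E12.5 libraries and 1.01 and 1.05 in those of E16.5, and 1.01 at P3 (exact 95% binomial interval 0.986 to 1.04). The P3 values come from 1 matrix, processed with another version of Cell Ranger, and carry no test of stage. A ratio of UMIs depends on how each 3′ end is captured, so only the same ratio in different sums can be compared.

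**Figure D5:**
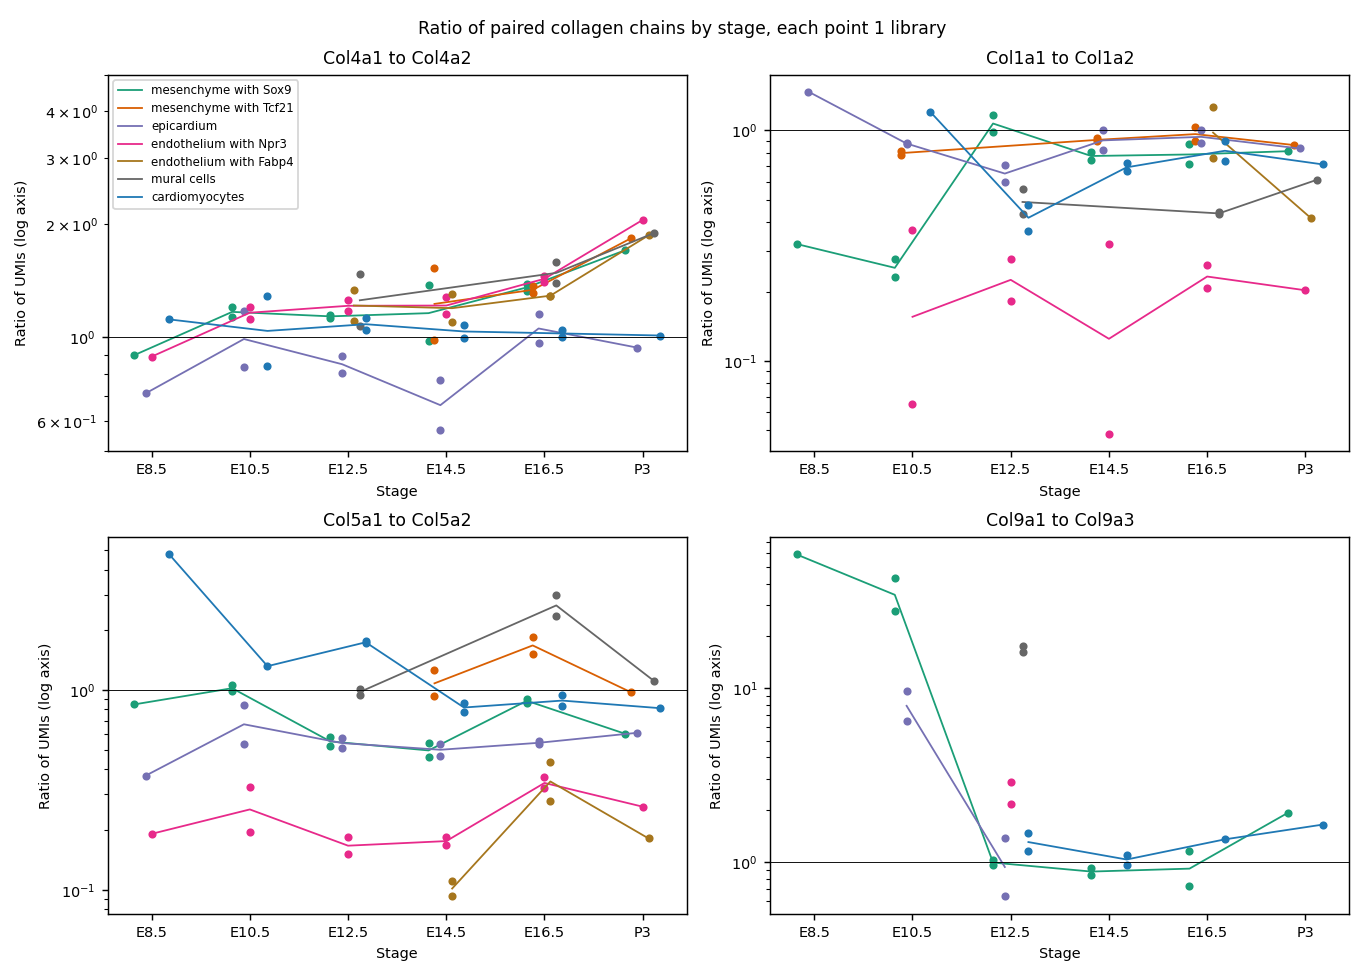
Ratio of UMIs of paired collagen chains by stage on a log axis, each point 1 library with at least 30 UMIs of the pair, and lines joining the geometric means of a stage. Col4a1 to Col4a2 reaches 1.71 to 2.05 at P3 in mesenchyme, endothelium and mural cells and is 1.01 in cardiomyocytes and 0.940 in epicardium, which is at 0.568 and 0.769 in the E14.5 libraries, and Col9a1 to Col9a3 is far above 1 at E8.5 and E10.5.

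Other pairs differed more between classes. Col1a1 to Col1a2, the 2 genes of type I, stood at 0.277 and 0.232 in Sox9 mesenchyme of E10.5 embryos. Heart libraries of this class had higher ratios, namely 0.979 and 1.17 (E12.5), 0.745 and 0.805 (E14.5), then 0.711 and 0.869 (E16.5). Within hearts the ratio was therefore highest in the E12.5 libraries and did not rise later. The step between E10.5 and E12.5 is also one from embryo to heart, so stage and tissue are not separable there. The Npr3 endothelium had 0.182 and 0.277 in E12.5 hearts, 0.322 and 0.0484 in E14.5 hearts, 0.208 and 0.260 in E16.5 hearts and 0.203 at P3 (exact 95% binomial interval 0.145 to 0.277), where the wells were at 0.278 and 0.0698. The ratio varied widely between libraries of this class and was below that of Sox9 mesenchyme in each of these hearts. Col1a2 was 86.04 and 118 CPM in Npr3 endothelium at E16.5, above the 57.9 and 31.8 CPM of erythroid barcodes. Col1a1 at P3 was 50.4 CPM in Npr3 endothelium and 51.6 CPM in erythroid barcodes, which are not a clean background at that stage. The part of background in this ratio was not tested. Col5a1 to Col5a2 was 2.34 and 3.000000 in mural cells at E16.5 and 0.321 and 0.365 in Npr3 endothelium. Col9a1 to Col9a3 in Sox9 mesenchyme was 59.0 in the E8.5 matrix, 42.9 and 27.8 in the E10.5 libraries and 0.957 and 1.03 in the E12.5 libraries. The E8.5 ratio rests on 236 UMIs of Col9a1 and 4 of Col9a3, so it is imprecise. Col9a3 was 0.613 to 1.20 CPM in the embryo libraries and 136 and 119 CPM in E12.5 hearts, while Col9a1 was 33.2 to 36.1 CPM and 129.7 and 122 CPM. In cells with Rgs5 at E12.5 the ratio was 17.5 and 16.1, with Col9a1 at 180.5 and 167 CPM, its highest level in any class. Col6a1 to Col6a2 was 0.799 and 0.881 in Sox9 mesenchyme and 0.362 and 0.322 in cardiomyocytes at E16.5.

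Mural cells at E16.5 held more type IV and less interstitial collagen than Tcf21 mesenchyme. By edgeR 3 of 35 members were higher and 19 lower, beside 5.41% and 6.30% of all genes, and the median log2 difference was -1.27 over members and 0.00 over all. Col4a1 was 829.8 and 1033 CPM in mural cells and 485 and 395 CPM in Tcf21 mesenchyme, a log2 difference of 0.98 ± 0.14 (adjusted p = 1.1e-06), and Col4a2 differed by 0.82 ± 0.12. Col1a1 was 196 and 192 CPM against 2569.9 and 2973 CPM, a difference of -3.91 ± 0.24 (adjusted p = 1.1e-17), and Col3a1 and Col1a2 differed by -2.58 ± 0.15 and -2.77 ± 0.20. Type VI was present in both, with Col6a1 at 171 and 151 CPM and 379.9 and 373 CPM, a difference of -1.30 ± 0.17. The mesenchyme markers were 462 and 511 CPM in mural cells and 1305 and 1385 CPM in Tcf21 mesenchyme. When sums of at least 10 barcodes were admitted, which brings in E12.5 and E14.5, 3 members were higher and 10 lower. The share of all genes in that setting is not given here, so these counts have no background beside them.

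Between E12.5 and E16.5 the Rgs5 gate changed in its collagen profile, with fibrillar chains at 75.97% and 77.9% of collagen UMIs at E12.5 and 40.3% and 37.996% at E16.5, and network chains at 5.90% and 5.85% and 41.6% and 44.7%. Col4a1 was 80.4 and 84.8 CPM at E12.5, 829.8 and 1033 CPM at E16.5 and 1712 CPM (1678 to 1746) at P3, a log2 fold change to E16.5 of 3.61 ± 0.14 (adjusted p = 4.8e-11). Col6a1 and Col6a2 rose by 3.83 ± 0.23 and 3.90 ± 0.23. Col1a1, Col1a2 and Col3a1 fell, with log2 fold changes of -0.84 ± 0.17, -0.64 ± 0.11 and -0.56 ± 0.11, as did Col18a1 and Col9a1, with -4.06 ± 0.29 and -6.33 ± 0.33. In all 9 of 23 members rose and 11 fell by edgeR, beside 16.2% and 13.5% of all genes. The 6 mural markers rose over the same interval from 161 and 199.7 to 2156 and 2196 CPM and the 6 mesenchyme markers fell from 1139.6 and 1329 to 462 and 511 CPM, and the smooth muscle markers went from 2943 and 2188 to 1547 and 1329 CPM, so that a change of collagen genes and a change of the cells in the gate cannot be told apart. At P3 the wells differ, with Col1a1 at 351 and 1074 CPM in wells 1 and 2.

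Cardiomyocytes were low in nearly all collagens. Against them, 26 of 35 members were higher in Tcf21 mesenchyme and 3 lower by edgeR over E14.5 and E16.5, beside 21.6% and 27.7% of all genes, with medians of 3.86 and -0.20, the latter 0.02 in DESeq2. Higher in cardiomyocytes was Col4a5, at 37.5 and 35.8 CPM at E14.5 and 35.2 and 35.6 CPM at E16.5 against 6.81 and 9.38 CPM and 7.13 and 6.98 CPM, a log2 difference of -2.47 ± 0.24 (adjusted p = 3.3e-12). Its head-to-head partner Col4a6 was lower in Tcf21 mesenchyme as well, at 0 to 2.27 CPM against 5.72 to 11.9 CPM, and Col23a1 had no UMI in Tcf21 mesenchyme, which at this depth sets no bound against the 0.721 to 1.71 CPM of cardiomyocytes. Col4a1 was 61.7 to 80.6 CPM in cardiomyocytes from E12.5 to E16.5, beside 46.6 to 86.1 CPM in free RNA and 3.76 to 19.999 CPM in erythroid barcodes. The part of free RNA in that level was not tested.

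Col2a1 fell with stage in cardiomyocytes. It was 143 CPM (130.1 to 157) at E8.5, 104 and 121 CPM at E10.5, 44.4 and 53.2 CPM at E12.5, 18.9 and 20.5 CPM at E14.5, 0.480 and 0.200 CPM at E16.5 and 0.0981 CPM (0.0490 to 0.176) at P3. The log2 fold change from E12.5 to E16.5 was -6.91 ± 0.16 (adjusted p = 4.5e-14) in edgeR, and libraries of different stages did not overlap from E12.5 on. Up to E14.5 these levels were above free RNA, which held 29.7 to 39.7 CPM of Col2a1 at E8.5 and E10.5, 16.1 to 22.8 CPM at E12.5 and 7.76 to 10.7 CPM at E14.5. At E8.5 and E10.5 the cardiomyocyte level was above that of every other class described here. Sox9 mesenchyme was in the same range at E12.5 and higher at E14.5. Over all matrices, 15600 of 30189 Col2a1 UMIs in kept barcodes lay in the described classes. Levels in the other barcodes are not given, so cells outside these classes may hold more. Col18a1 fell from 23.5 and 25.7 CPM to 6.68 and 7.17 CPM, a log2 fold change of -1.68 ± 0.07 (adjusted p = 3.8e-11), Col12a1 from 16.1 and 17.5 CPM to 7.31 and 6.35 CPM, a change of -1.14 ± 0.08 (adjusted p = 1.3e-08), and Col5a1 from 16.47 and 18.4 CPM to 7.55 and 5.93 CPM, a change of -1.21 ± 0.10 (adjusted p = 4.7e-08). In all, 12 of 33 members rose and 16 fell, beside 31.7% and 30.4% of all tested genes. Of those that rose, Col6a2 went from 9.88 and 11.3 CPM to 26.8 and 28.2 CPM, a log2 fold change of 1.52 ± 0.07, beside 8.44 and 6.33 CPM in erythroid barcodes and 35.3 to 39.1 CPM in free RNA at E16.5. The sum of type VI genes went from 17.5 and 19.4 CPM to 40.2 and 40.996 CPM, with 17.8 and 11.8 CPM in erythroid barcodes at E16.5. Also among those that rose were Col1a1, from 7.51 and 11.02 CPM to 26.8 and 21.9 CPM, and Col15a1, from 0.119 and 0.112 CPM to 2.09 and 2.06 CPM, while erythroid barcodes went from 4.52 and 5.11 to 45.8 and 24.4 CPM of Col1a1 and from 0 and 0.0824 to 1.04 and 3.9997 CPM of Col15a1 over the same stages. Other markers were lower at E16.5 in this class too. The 6 mesenchyme markers went from 397 and 464 CPM at E12.5 to 242 and 252 CPM at E16.5, the 7 epicardial markers from 85.5 and 79.9 to 30.97 and 32.4 CPM and the smooth muscle markers from 1694 and 1644 to 1042 and 1058 CPM, and their part in the falls of Col2a1, Col18a1, Col12a1 and Col5a1 was not tested.

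The enzymes and partners that make, trim, cross-link, bind and clear collagen were taken as a list of 49 genes found in the matrices. In Sox9 mesenchyme 26 of 41 tested list genes were higher at E16.5 than at E12.5 and 2 lower by edgeR, beside 15.2% and 13.6% of all genes, with a median log2 fold change of 0.63. Tcf21 mesenchyme had 28 higher and 2 lower of 40, beside 20.9% and 18.8% of all genes, and epicardium 21 and 2 of 34, beside 16.4% and 13.2%. Cardiomyocytes had 11 higher and 21 lower of 44, beside 31.7% and 30.4% of all genes. Npr3 endothelium had 17 higher and 2 lower of 33, beside 21.0% and 23.1%, and Fabp4 endothelium 4 and 6 of 31, beside 12.6% and 14.7%. The Rgs5 gate had 5 higher and 9 lower of 34, beside 16.2% and 13.5%. Among the genes of modification and folding, Serpinh1, the collagen chaperone, changed by 0.59 ± 0.08 in Sox9 mesenchyme, 0.91 ± 0.09 in Tcf21 mesenchyme and 0.40 ± 0.11 in epicardium, and by -0.62 ± 0.07 in cardiomyocytes. Of the fibril binding proteins, Dcn (decorin) was 64.5 and 62.7 CPM in Sox9 mesenchyme at E12.5 and 2853 and 2899 CPM at E16.5, a log2 fold change of 5.57 ± 0.10.

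Fmod, the fibril binding proteoglycan fibromodulin, was 75.5 and 94.98 CPM with Sox9 and 1.78 and 5.58 CPM with Tcf21 at E16.5, and the log2 difference over E14.5 and E16.5 was 4.29 ± 0.39 (adjusted p = 9.7e-12) in edgeR. It was also higher in epicardium than in Tcf21 mesenchyme, by 5.00 ± 0.38. Of 43 tested list genes, 7 were higher in epicardium and 12 lower in that contrast, beside 26.0% of all genes in either direction. Of the cross-linking enzymes, Lox changed by 2.09 ± 0.20 from E12.5 to E16.5 in epicardium and 1.09 ± 0.14 in Tcf21 mesenchyme, and by -2.90 ± 0.41 in the Rgs5 gate. Among receptors, Itga1, a chain of a collagen-binding integrin, was 6.19 and 0 CPM in the Rgs5 gate at E12.5 and 87.9 and 99.97 CPM at E16.5, a change of 5.05 ± 0.44, and Ddr1, a collagen-binding kinase, was higher in epicardium than in Tcf21 mesenchyme by 2.02 ± 0.18.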

How the data were processed

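Hearts (E12.5 to P3) and embryos (E8.5 and E10.5) were profiled by 10x 3′ single-cell sequencing. The authors deposited raw UMI counts per gene and barcode, aligned to mm10. The submitters' processing notes name Cell Ranger 2.1.1 and Seurat 3.1.1, while the matrix headers name Cell Ranger 3.1.0, and 3.0.0 for P3. Of E8.5, replicate 1 was not analysed here, nor was 1 of the 3 samples labelled E16.5. The 2 labelled P3 samples share 1 matrix.

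Barcodes of at least 2000 UMIs were gated on marker genes, and the 113 barcodes in several gates were left out. Doublets were not called. Barcodes over the 95th percentile of UMIs were left out as an alternative. UMIs were summed per class and library (at least 20 barcodes) and scaled to CPM. Contrasts between classes or stages were tested with edgeR 4.0.16 (R 4.3.3, TMM scaling, filterByExpr, quasi-likelihood, Benjamini-Hochberg adjustment over all tested genes, adjusted p under 0.05). The standard error is the log2 fold change divided by the root of F. DESeq2 1.42.0 was an alternative, and the procedure was tested on simulated data.

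The members and the gene lists were chosen with earlier results of these data known. In each contrast the members with the largest change past the threshold and at least 50 CPM in a group were named first, then Col1a1, Col3a1, Col4a1, Col6a1 and Col2a1, and any other member could be named. Mesenchyme with Tcf21 alone had under 20 barcodes at E12.5 and mural cells had under 20 at E14.5, so that contrasts with Tcf21 used E14.5 and E16.5, those of mural cells against Tcf21 E16.5 alone, and changes with stage in Tcf21 mesenchyme took barcodes with or without Sox9, a choice made after seeing the data. Replicate numbers did not pair the libraries, with correlations of same-numbered deviations between -0.02 and 0.13.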

Additional observations from a re-analysis of the deposited data

Results flagged for a closer look

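The change from E12.5 to E16.5 differed between Tcf21 mesenchyme (with or without Sox9) and Sox9 mesenchyme for 7 collagens, tested as the difference of the 2 changes with edgeR's quasi-likelihood test over all genes. The log2 difference was -3.68 ± 0.53 (SE) for Col2a1, -3.52 ± 0.28 for Col9a3, -3.15 ± 0.27 for Col9a1, -1.74 ± 0.19 for Col18a1, -1.39 ± 0.25 for Col9a2 and -1.72 ± 0.37 for Col13a1. Without replicate 1 of E16.5 the Col13a1 value was -1.77 (adjusted p = 0.084). For Col8a2, a network chain, it was -4.06 ± 1.19 (adjusted p = 0.049), and in Sox9 mesenchyme of E12.5 this gene stood at 0.124 and 0 CPM. The Col8a2 difference no longer passed under 11 alternatives, and without replicate 2 of E12.5 it was -1.48 (adjusted p = 0.86). The 7 values share the same sums. Their causes were not tested.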

How the results depend on the processing

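Of 367 results for single genes, repeats under the alternatives gave 5268 values on the same side of the threshold and in the same direction, 278 that no longer passed and 5 that changed sign. Col18a1, Npr3 against Fabp4 endothelium, turned to -0.071 without barcodes over the 95th percentile of UMIs. With sums of at least 10 barcodes, an alternative chosen after seeing the data, Col8a1 in epicardium against Tcf21 mesenchyme turned to 1.38, and Col6a3 and Col12a1 in mural cells against Tcf21 mesenchyme to 0.0043 and 0.20. Col9a3 in Tcf21 mesenchyme against cardiomyocytes ranged from -0.68 without replicate 2 of E16.5 to 3.83 without replicate 1 of it. The causes were not tested. Of the counts of collagens called, the 7 whose stage change differed between Tcf21 and Sox9 mesenchyme became 11 without a filter on low counts and 4 with at least 10 barcodes and Tcf21 without Sox9. The 22 of mural cells against Tcf21 mesenchyme became 13 with at least 10 barcodes. At E10.5 the 4 became 7 with Tcf21 counted with or without Sox9, and those 7 became 2 under stricter gates. Leaving out each library in turn gave 5 to 8 calls for the stage change in Fabp4 endothelium, 1 to 4 at E10.5 and 2 to 7 at E10.5 with Tcf21 counted with or without Sox9. The collagen sum moved by more than the replicate spread in Sox9 mesenchyme, from 4625 to 4373 CPM under stricter gates, in Tcf21 mesenchyme, from 9075 to 8885 CPM with the mitochondrial ceiling, and in cardiomyocytes, from 361 to 333 CPM without barcodes over the 95th percentile of UMIs.

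A replicate block raised the 7 collagens whose stage change differed to 11 and moved no other count of calls by over 1.5 times. It ended the call of 3 single-gene results of 367. In fits of stage within a class the block was the replicate number, which is all that libraries of different stages share. In fits over classes it was the library from which the class sums of a stage were drawn. The main fits held no block, so class sums from the same library were treated as independent. The designed stage change and difference for Tcf21 without Sox9 could not be fitted with 20 barcodes. Not run were the Fabp4 stage change without barcodes over the 95th percentile of UMIs, and the mural stage change and the E10.5 contrast under stricter gates, where too few sums were left. Classes of under 50 barcodes limit what the Tcf21 contrasts at E10.5 and the Fabp4 class at E12.5 can show. Such sums also enter the heart contrasts, with 35 and 31 barcodes of Tcf21 mesenchyme at E14.5 and 36 of epicardium in replicate 2 of E16.5.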
